A study of Mus musculus with 6 samples.

Results

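The transcripts described here are those of 10 chemokine ligands, Ccl2, Ccl3, Ccl4, Ccl6, Ccl9, Ccl17, Ccl22, Cxcl2, Cxcl16 and Pf4. They were chosen by gene symbol from the 25664 genes of the deposited count table, and all 10 symbols were found there. RNA sequencing had been done on alveolar macrophages, the resident phagocytes of the airspaces, sorted from lung lavage fluid of mice. In 3 libraries the mice were labelled Vav1cre/+ Pex5fl/fl, here called Pex5-deficient, and in 3 they were labelled Pex5fl/fl, here called control. Both groups carried the floxed Pex5 alleles, and the recombinase was present in the Pex5-deficient group alone. The Vav1 promoter drives Cre across the haematopoietic lineage, so deletion is not limited to macrophages. The labels used here do not give age, sex or strain background, nor whether each library came from a separate mouse. The p-values therefore cover the spread among these 6 samples alone, part of which may be technical.

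Chemokines are small secreted proteins that guide leukocytes along concentration gradients by binding G protein-coupled receptors. They are grouped by the spacing of conserved cysteines into CC ligands (Ccl genes) and CXC ligands (Cxcl genes and Pf4), and many of their genes lie in clusters that arose by duplication. Macrophages of the airspaces are a source of chemokines for neutrophils, monocytes and lymphocytes when the lung is challenged. PEX5 is the receptor that carries most matrix enzymes into peroxisomes.

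Levels are CPM, counts of a gene per 1000000 counts of its library, on library sizes scaled by trimmed mean of M values (TMM), with the SD over 3 libraries of a group. The test is edgeR's quasi-likelihood test over all 11011 genes with enough counts, with Benjamini-Hochberg adjustment, and a gene is called where its adjusted p is under 0.05. Total counts were 13325609 to 19413838 per library, so that 1 count was worth 0.0420 to 0.0782 CPM. Pex5-deficient replicate 2 stood apart, with a scaling factor of 1.34 against 0.899 to 1.03 in the other 5 libraries and 30.4% of its counts in the 50 most abundant genes against 38.3% to 42.1%. Pex5 itself measured 31.6 ± 1.71 CPM in the controls against 32.4 ± 3.45 CPM in the Pex5-deficient group. Counts over a whole gene keep the reads of exons outside the loxP sites, and which exons those sites flank is not stated. This value therefore does not check the labels, and the extent of deletion was not tested. All 14 markers of alveolar macrophages were detected. Of these, Chil3 was the most abundant, at 43069 ± 9852 CPM in the controls against 48108 ± 19516 CPM in the Pex5-deficient group, while 1 of the 14 rose and 4 fell, among them Siglecf from 651 ± 28.6 to 219 ± 39.0 CPM.

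Of the 10 ligands, 9 passed the filter on low counts and Ccl2 did not. Ccl4 had under 10 counts in every control library and Pf4 in every Pex5-deficient library, so each passed through its higher group alone. Their place among the 9, and in the median below, is thus tied to their differences. Ccl3, Ccl4 and Ccl22 were called higher in Pex5-deficient macrophages and 0 of the 9 were called lower, where 1.74% of all tested genes were called higher and 1.51% lower. DESeq2 likewise called 0 of them lower. Of all 11011 tested genes 2078 had an unadjusted p under 0.05. Such a p was found for 5 of the 9 ligands, the 3 called ones with Ccl17 higher and Pf4 lower. These 5 were also the ligands whose 2 groups of libraries did not overlap, 4 higher and 1 lower. Among all tested genes the groups did not overlap for 26.1%, 1430 of them higher and 1440 lower. The median log2 fold change of the 9 was 1.24, against 0.00 for all tested genes. The ligands were chosen with earlier results of these data known, so their counts and median describe them and are no test of the set. In bulk RNA more cells of a kind and more RNA per cell cannot be told apart.

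**Figure D1:**
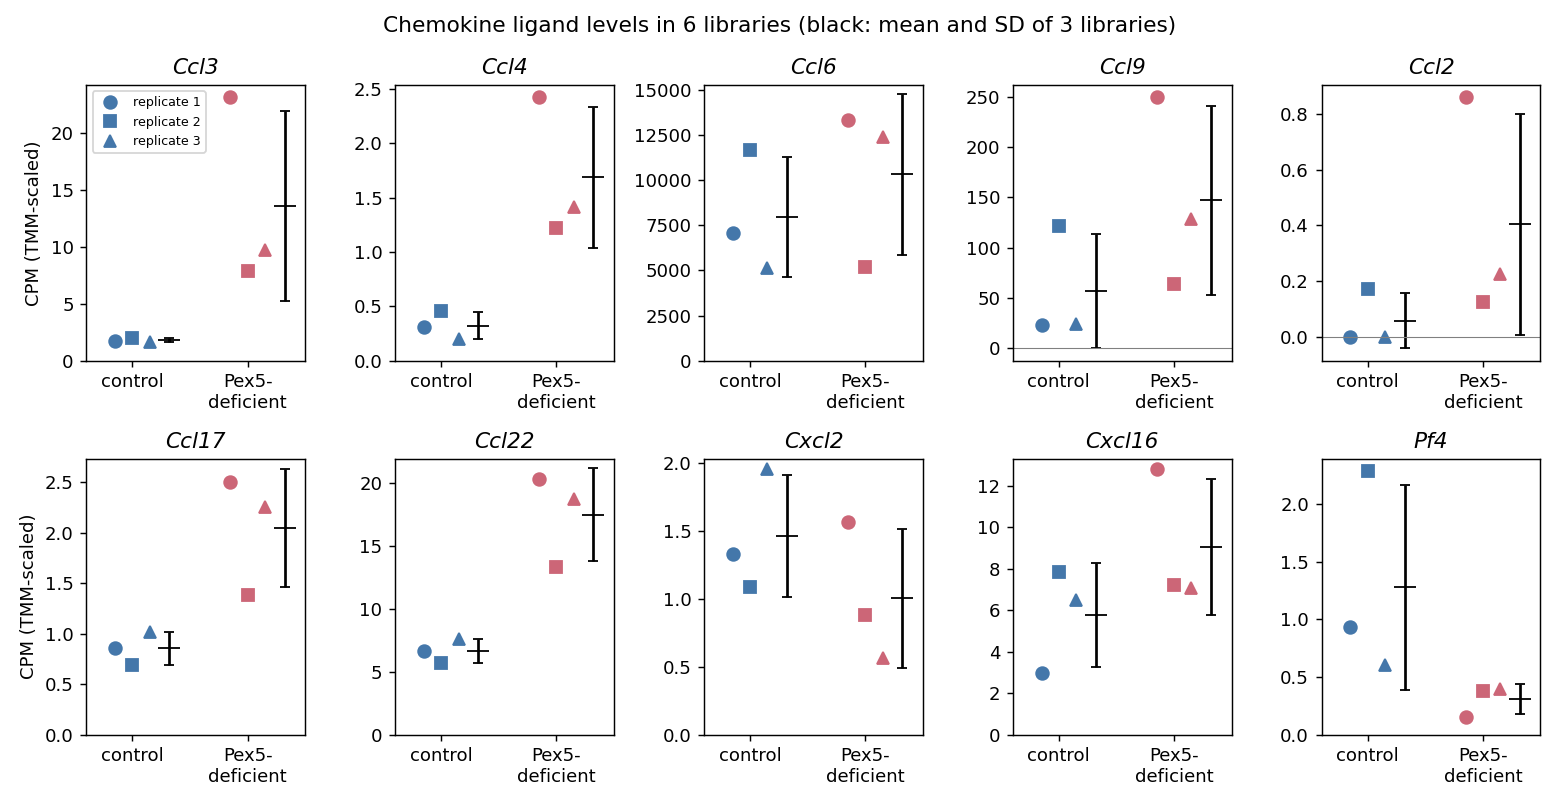
CPM (TMM-scaled) of the 10 chemokine ligands in each of 6 libraries, 1 panel per gene with its own linear axis. Points are libraries, shaped by replicate number, and the black mark with its bar is the mean and SD of 3 libraries. The groups do not overlap for Ccl3, Ccl4, Ccl17 and Ccl22, which were higher in the Pex5-deficient libraries, and for Pf4, which was lower.

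The bases before the start site are shown for 4 of the 5 ligands whose groups did not overlap. Those of Cxcl2, whose groups overlapped, stand beside them because they hold NF-kB-type matches that the other 4 lack. RefSeq promoter sequences (GRCm38.p6) were held for 7 of the 10 ligands, the exceptions being Ccl2, Ccl4 and Cxcl16. Windows were the 250 bases before the RefSeq start. For Ccl22 and Cxcl2 only the 156 and 222 bases that also precede the GENCODE start are printed. Sequences run 5′ to 3′ along the gene, and capitals mark matches to the 9 motifs searched on both strands.
Ccl3, chr11:83649379-83649628, minus strand: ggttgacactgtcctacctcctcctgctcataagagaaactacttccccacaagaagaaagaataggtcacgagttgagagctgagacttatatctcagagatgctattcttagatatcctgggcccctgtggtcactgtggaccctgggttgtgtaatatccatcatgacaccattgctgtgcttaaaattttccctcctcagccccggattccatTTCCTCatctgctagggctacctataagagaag
Ccl22, chr8:94745434-94745589, plus strand: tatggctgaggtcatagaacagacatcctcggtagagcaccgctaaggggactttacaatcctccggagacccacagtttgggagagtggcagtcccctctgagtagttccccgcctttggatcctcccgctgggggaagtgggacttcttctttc
Ccl17, chr8:94810203-94810452, plus strand: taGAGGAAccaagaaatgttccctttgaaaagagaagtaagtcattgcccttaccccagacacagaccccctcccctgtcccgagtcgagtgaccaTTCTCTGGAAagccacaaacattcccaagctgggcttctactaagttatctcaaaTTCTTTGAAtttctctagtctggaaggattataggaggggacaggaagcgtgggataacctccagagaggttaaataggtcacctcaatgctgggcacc
Cxcl2, chr5:90903649-90903870, plus strand: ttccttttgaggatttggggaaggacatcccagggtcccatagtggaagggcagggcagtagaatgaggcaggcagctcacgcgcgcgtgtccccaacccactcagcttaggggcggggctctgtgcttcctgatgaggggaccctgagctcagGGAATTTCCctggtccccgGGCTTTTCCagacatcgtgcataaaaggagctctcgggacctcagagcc
Pf4, chr5:90772185-90772434, plus strand: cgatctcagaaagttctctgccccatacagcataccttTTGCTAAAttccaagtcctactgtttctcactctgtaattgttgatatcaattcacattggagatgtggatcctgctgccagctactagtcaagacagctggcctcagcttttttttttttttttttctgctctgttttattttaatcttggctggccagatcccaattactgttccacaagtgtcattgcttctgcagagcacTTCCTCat

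The motif GGNNTTTCC, of the NF-kB type, was in 2 of the 7 windows, Cxcl2 with 2 matches and Ccl9 with 1, and in 4.93% of all 32851 promoter windows of that length. In Cxcl2 the matches began 96 and 77 bases before the start. The other form searched, GGNNTTCCC, was in 0 of the 7 and in 4.99% of all windows. The AP-1 motif TGANTCA was in Ccl9 alone (6.75% of all windows), and the CRE motif TGACGTCA in none of the 7 (1.55%). Of the STAT motifs, TTCNNNGAA (7.02%) and the same arms with 4 bases between them (5.85%) were each in Ccl17 alone, beginning 99 and 154 bases before the start. The C/EBP motif TTGCNNAA was in Pf4 alone (9.56%). The core GAGGAA bound by PU.1 was in Ccl3, Ccl17 and Pf4 (23.25%), TATAAA was in Ccl9 alone (12.37%), and the windows of Ccl6 and Ccl22 held none of the 9. The Ccl9 matches to TATAAA overlap each other in part. Such matches are letters in a window and were not tested as binding sites.

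Ccl3 and Ccl4 encode the macrophage inflammatory proteins MIP-1alpha and MIP-1beta, which draw monocytes and lymphocytes, and CCL3 binds CCR1. Ccl3 measured 1.72, 2.004 and 1.69 CPM over control replicates 1 to 3, against 23.2, 7.86 and 9.72 CPM over Pex5-deficient replicates 1 to 3. The control libraries lay within 1.19-fold of each other, and every Pex5-deficient library was above all of them, with replicate 1 the highest. Ccl3 rose from 1.80 ± 0.174 to 13.6 ± 8.34 CPM (log2 fold change 2.88 ± 0.43 SE, n = 3 per group, edgeR adjusted p = 0.0128). As a fold this is 7.38, with a 95% interval from 3.75 to 14.5. Ccl3 lost its call without control replicate 1, where its log2 fold change was 2.85 and its adjusted p 0.0681. Without Pex5-deficient replicate 1, its highest library, the log2 fold change was 2.27 and the adjusted p 0.00981, a fold smaller by over 1.5 times, and without the outlying Pex5-deficient replicate 2 they were 3.18 and 0.00624.

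Ccl4 was much the scarcer on the CPM scale. It had 4, 8 and 3 counts in control replicates 1 to 3 and 31, 29 and 25 counts in Pex5-deficient replicates 1 to 3, or 0.313, 0.458 and 0.203 against 2.42, 1.22 and 1.41 CPM. All Pex5-deficient libraries again lay above all controls, with replicate 1 the highest. Ccl4 rose from 0.325 ± 0.128 to 1.69 ± 0.648 CPM (log2 fold change 2.29 ± 0.46, n = 3 per group, edgeR adjusted p = 0.0347), a fold of 4.88 with a 95% interval from 2.38 to 10.02. The call ended without any 1 library other than Pex5-deficient replicate 2. Its adjusted p was 0.111 without Pex5-deficient replicate 1 and 0.0635 without replicate 3, and 0.140, 0.0747 and 0.124 without control replicates 1, 2 and 3. It also ended with limma-voom (0.0521) and with a replicate block (0.105), and Ccl4 was not tested with a filter at a mean of 5 CPM.

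Ccl2, which encodes the CCR2 ligand MCP-1 that recruits monocytes, was near the limit of detection. It had 0, 3 and 0 counts in control and 11, 3 and 4 counts in Pex5-deficient replicates 1 to 3. The library with 11 counts was again Pex5-deficient replicate 1, and the groups overlapped on the CPM scale. Ccl2 did not pass the filter, and without a filter it was not called by edgeR (n = 3 per group, adjusted p = 0.361) or by DESeq2 (0.363).

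**Figure D2:**
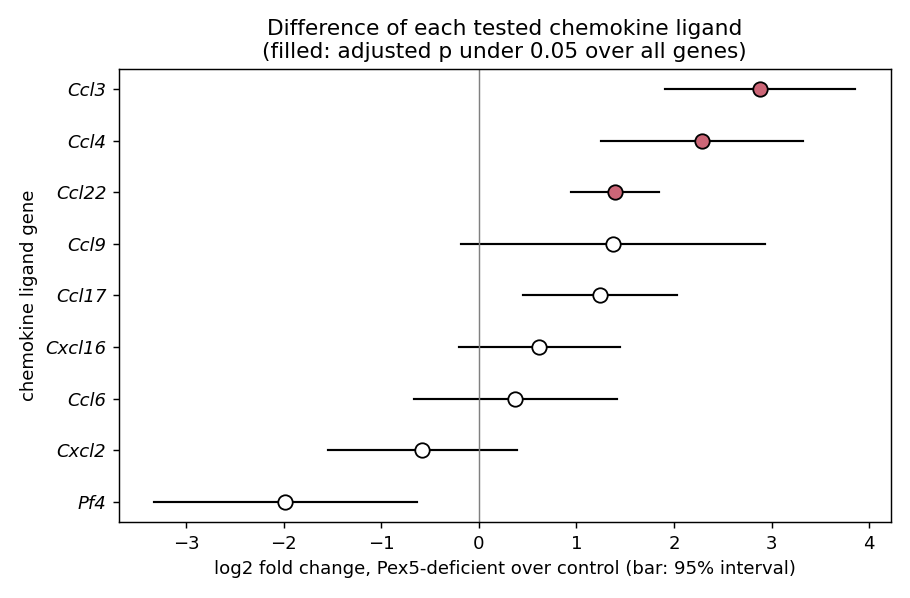
Log2 fold change of the 9 tested chemokine ligands, Pex5-deficient over control, with 95% intervals as bars. Filled points passed an adjusted p of 0.05 over all genes, and are Ccl3 (2.88), Ccl4 (2.29) and Ccl22 (1.39), while the intervals of Ccl17 and Pf4 leave out 0 although neither passed the adjustment.

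Ccl17 and Ccl22 encode TARC and MDC, ligands of CCR4 that attract T helper 2 and regulatory T cells and are known best from dendritic cells and alternatively activated macrophages. Ccl22 measured 6.65, 5.67 and 7.56 CPM in the controls against 20.3, 13.3 and 18.8 CPM over Pex5-deficient replicates 1 to 3. The lowest Pex5-deficient library was replicate 2, and it was still above the highest control. Ccl22 rose from 6.63 ± 0.946 to 17.5 ± 3.68 CPM (log2 fold change 1.39 ± 0.20, n = 3 per group, edgeR adjusted p = 0.0112), a fold of 2.63 with a 95% interval from 1.92 to 3.60. Its standard error was the smallest among the 9 tested ligands. The call ended without control replicate 1 (adjusted p = 0.0566) and held under the other 13 settings, with adjusted p from 5.35e-07 to 0.0457.

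Ccl17 measured 0.860, 0.687 and 1.01 CPM in the controls against 2.50, 1.39 and 2.26 CPM over Pex5-deficient replicates 1 to 3, from 11 to 15 and 32 to 40 counts. The groups did not overlap, and the order of the Pex5-deficient libraries was that of Ccl22. The log2 fold change of 1.24 ± 0.35 was close in size to that of Ccl22, but Ccl17 was not called (n = 3 per group, edgeR adjusted p = 0.0968, 95% interval of the log2 fold change from 0.45 to 2.03). Without Pex5-deficient replicate 2 it passed, with a log2 fold change of 1.49 and an adjusted p of 0.0461.

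Of 10 markers of dendritic cells, Cd209a and Siglech had no count in any library, and only Clec10a was tested (log2 fold change 0.98 ± 0.57, adjusted p = 0.389). Their summed level was 1.03 to 1.42 CPM in the controls against 1.36 to 1.80 CPM in the Pex5-deficient group, less than the level of Ccl22 alone in every library but above that of Ccl17 in the 3 controls and in Pex5-deficient replicate 2. Their part in the ligands' differences was not tested. Of 7 tested genes of STAT6 signalling and alternative activation 0 were called by edgeR. An unadjusted p under 0.05 was found for 2, as for 2078 of all 11011 tested genes. These 2 were Il4ra, the IL-4 receptor chain, at a log2 fold change of -0.34 ± 0.11 and Mrc1, the mannose receptor, at -0.48 ± 0.20. DESeq2 called 0 of the 7.

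Ccl6 and Ccl9 are CC chemokines of rodents that signal through CCR1, and they were the 2 most abundant ligands per kilobase of exon in both groups. Ccl6 measured 7071, 11643 and 5152 CPM in the controls against 13340, 5219 and 12389 CPM over Pex5-deficient replicates 1 to 3. Between 0.532% and 1.28% of all counts of a library were of Ccl6, which ranked between place 8 and place 17 among all genes by counts. It made up 97.7% to 99.5% of the counts of the 10 ligands in each library. The groups overlapped, as control replicate 2 lay near the high Pex5-deficient libraries and Pex5-deficient replicate 2 near the low controls. Ccl6 was not called (log2 fold change 0.37 ± 0.46, n = 3 per group, edgeR adjusted p = 0.708), with a 95% interval of the log2 fold change from -0.67 to 1.42. Without control replicate 2 its log2 fold change was 0.75 and without Pex5-deficient replicate 2 it was 0.71, and it was called in neither.

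Among the 9 tested ligands Ccl9 had the widest range over the controls. It measured 23.3, 122 and 23.9 CPM in the controls against 250, 63.6 and 128 CPM over Pex5-deficient replicates 1 to 3. Control replicate 2 was 5.23-fold above the lowest control and at the level of Pex5-deficient replicate 3, while the other 2 controls were below every Pex5-deficient library. Ccl9 was not called (56.4 ± 56.8 against 147 ± 94.5 CPM, log2 fold change 1.37 ± 0.69, n = 3 per group, edgeR adjusted p = 0.321). Without control replicate 2 its log2 fold change was 2.64 (adjusted p = 0.0610), and without Pex5-deficient replicate 1 it was 0.76 (0.674). It was called when libraries were scaled by their totals alone (1.48, 0.00137).

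Among the CXC ligands, Cxcl2 encodes MIP-2, a ligand of CXCR2 that recruits neutrophils. It measured 1.33, 1.09 and 1.96 CPM in the controls against 1.56, 0.882 and 0.565 CPM over Pex5-deficient replicates 1 to 3, from 10 to 29 counts per library. The groups overlapped, and the highest library was a control. Cxcl2 was not called (log2 fold change -0.58 ± 0.43, n = 3 per group, edgeR adjusted p = 0.506, 95% interval of the log2 fold change from -1.55 to 0.39). Of its 100-base words 2.95% also occur in Cxcl3, a close copy on the same chromosome that had too few counts to be tested.

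Cxcl16 encodes a ligand of CXCR6 that is made as a membrane-bound protein, also known as a scavenger receptor for oxidised lipoprotein, and is shed by ADAM10. It measured 2.97, 7.84 and 6.48 CPM in the controls against 12.8, 7.23 and 7.06 CPM over Pex5-deficient replicates 1 to 3. Replicate 1 was the lowest of the controls and the highest of the Pex5-deficient libraries, and the other 4 libraries lay between 6.48 and 7.84 CPM. Cxcl16 was not called (5.77 ± 2.51 against 9.04 ± 3.28 CPM, log2 fold change 0.62 ± 0.36, n = 3 per group, edgeR adjusted p = 0.396). Its exons share 552 bases with Zmynd15 on the opposite strand, and whether counting used strand is not stated, so its level is uncertain. Adam10 was not called either (log2 fold change -0.30 ± 0.26, adjusted p = 0.580).

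Pf4 encodes platelet factor 4 (CXCL4), stored in platelet granules and also made by some tissue macrophages. It was the ligand that was lower without overlap, at 0.939, 2.29 and 0.608 CPM in the controls against 0.156, 0.378 and 0.396 CPM over Pex5-deficient replicates 1 to 3. These were 12, 40 and 9 counts against 2, 9 and 7. The log2 fold change was -1.98 ± 0.59 with a 95% interval from -3.33 to -0.64, and Pf4 was not called (n = 3 per group, edgeR adjusted p = 0.115). It was called under none of the 12 other settings in which it was tested, with adjusted p from 0.0653 to 0.276. Without control replicate 2, its highest library, it did not pass the filter. The summed platelet markers overlapped between the groups, and their part in this value was not tested. Of 12 such markers 6 had no count in any library, among them Itgb3, Gp6, Gp9, Ppbp and Tubb1, and the sum of the list was 0.313 to 1.32 CPM in the controls against 0.756 to 1.10 CPM in the Pex5-deficient group.

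Per kilobase of exon, Ccl6 stood highest in control, with 4432 ± 1858 CPM per kilobase, then Ccl9 with 18.5 ± 18.7, Ccl22 with 2.85 ± 0.407, Ccl3 with 2.36 ± 0.227, Cxcl16 with 1.91 ± 0.832, Pf4 with 1.77 ± 1.24, Ccl17 with 1.66 ± 0.317, Cxcl2 with 0.705 ± 0.217, Ccl4 with 0.492 ± 0.194 and Ccl2 with 0.0503 ± 0.0872. Neighbours in this order differed by more than the sum of their SDs only at the steps from Ccl6 to Ccl9, from Ccl17 to Cxcl2 and from Ccl4 to Ccl2. In Pex5-deficient libraries Ccl3 stood at place 3 with 17.7 ± 10.9 CPM per kilobase, behind Ccl6 (5747 ± 2473) and Ccl9 (48.3 ± 31.0), and above Ccl22 (7.52 ± 1.58). Ccl17 (3.99 ± 1.14) and Ccl4 (2.55 ± 0.981) followed with Cxcl16 (2.99 ± 1.09) between them, and Cxcl2 (0.485 ± 0.247), Pf4 (0.430 ± 0.185) and Ccl2 (0.355 ± 0.350) were lowest. Here the steps that exceeded the sum of the SDs were those from Ccl6 to Ccl9, from Ccl22 to Ccl17 and from Ccl4 to Cxcl2. Pf4 was thus 6th of 10 in control and 9th in Pex5-deficient libraries.

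The libraries of a group differed in the same way for many ligands. Pex5-deficient replicate 1 was the highest of its group for 9 of the 10, the exception being Pf4, for which it was the lowest. Pex5-deficient replicate 2 was the lowest for 7 of the 10. Control replicate 2 was the highest of its group for 7 and the lowest for the other 3, Ccl17, Ccl22 and Cxcl2. These orders were not counted over all genes, so they are not shown to be particular to the ligands. Pex5-deficient replicate 2 was also the library with the outlying scaling factor of 1.34. The summed level of all 10 overlapped between the groups, at 5196 to 11785 CPM in the controls against 5315 to 13654 CPM. Without Ccl6 the sums still overlapped, at 38.1 to 142 CPM in the controls against 96.0 to 314 CPM. Leaving out Ccl6 and Ccl9, the summed level of the other 8 was 14.8 to 20.2 CPM in the controls. It was 63.8, 32.4 and 40.4 CPM over Pex5-deficient replicates 1 to 3, where Ccl3 and Ccl22, both called, made up most of it.

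The ligands lie in clusters of the genome (GENCODE release M21, GRCm38). On chromosome 11, Ccl9 (83572919 to 83578636, minus strand), Ccl6 (83587882 to 83593087, minus), Ccl3 (83647844 to 83649355, minus) and Ccl4 (83662584 to 83664683, plus) follow each other. Ccl3 and Ccl4 are 13.2 kb apart and were both called, while Ccl9 and Ccl6, 9.245 kb apart, were not. The difference between these pairs was not tested. Without control replicate 2 the log2 fold change was 2.64 for Ccl9 and 2.66 for Ccl4. Ccl5 lies beyond Ccl9 and had 0.401 to 0.939 CPM in the controls against 0 to 0.860 CPM in the Pex5-deficient group, too few counts to be tested. Over all 11011 tested genes 358 were called. Of 40 other genes of the count table within 100 kb of any of the 10 ligands, 19 were tested and 1 was called. This was Wfdc17, a secreted protein gene beside Ccl4, which rose from 31.1 ± 12.6 to 342 ± 172 CPM (log2 fold change 3.45 ± 0.46, n = 3 per group, edgeR adjusted p = 0.00865). Wfdc21, further along, was not called (0.53 ± 0.31, adjusted p = 0.401).

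On chromosome 8, Ccl22 (94745590 to 94751699) and Ccl17 (94810453 to 94812036) are 58.75 kb apart on the plus strand, with Cx3cl1 between them. Cx3cl1, which encodes the membrane-bound chemokine fractalkine, measured 56.4, 60.0 and 60.4 CPM in the controls against 47.3, 57.6 and 50.8 CPM over Pex5-deficient replicates 1 to 3. It was not called (log2 fold change -0.18 ± 0.10, adjusted p = 0.392), and the ligands on both sides of it had log2 fold changes of 1.39 and 1.24. The difference between these neighbours was not tested. On chromosome 5, Pf4 (90772435 to 90773383) and Cxcl2 (90903871 to 90905938) share a cluster with Cxcl5, Ppbp, Cxcl3, Cxcl15 and Cxcl1, all of which had too few counts to be tested. Ccl2 (82035571 to 82037453) and Cxcl16 (70453983 to 70459984) lie elsewhere on chromosome 11.

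**Figure D3:**
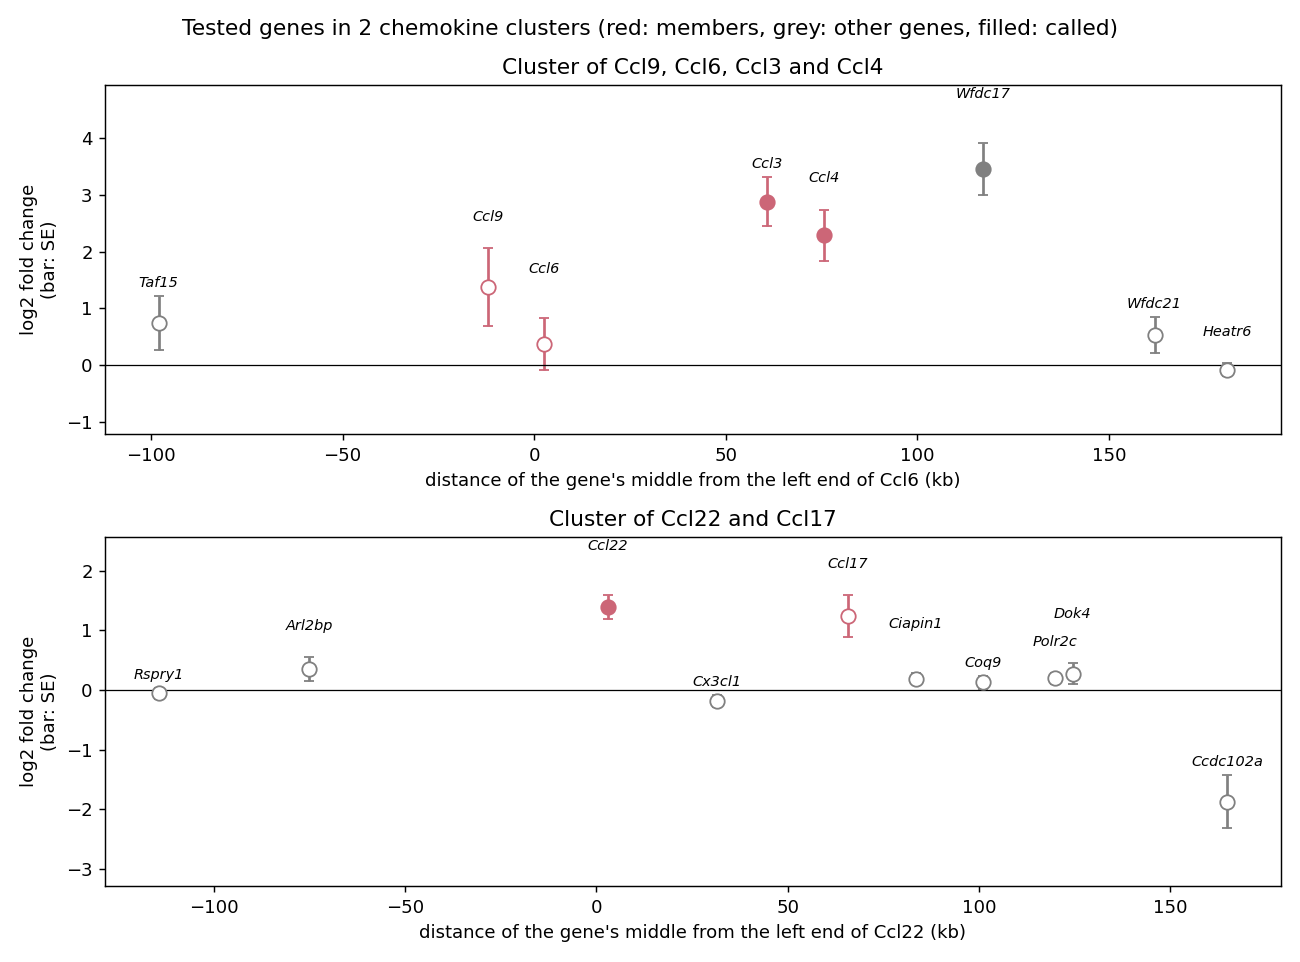
Log2 fold change (Pex5-deficient over control, bars are the SE) of every tested gene within 100 kb of a ligand of 2 clusters, against the distance of its middle in kb from the left end of Ccl6 (upper panel) or Ccl22 (lower panel). Red points are the ligands described here, grey points are other genes, and filled points were called. The points of Ccl3, Ccl4 and Wfdc17 lie above those of Ccl9 and Ccl6, and Cx3cl1 lies near 0 between Ccl22 and Ccl17. Differences between genes were not tested.

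Of 30 further chemokine ligand genes, 18 had no count in any library and 6 were tested. By edgeR 0 of the 6 were called, and 2 had an unadjusted p under 0.05, both lower, where 2078 of all 11011 tested genes had one. Cxcl14, a chemokine of resting tissues, had a log2 fold change of -0.92 ± 0.26 (n = 3 per group, adjusted p = 0.105), and Cxcl9, an interferon-induced ligand of CXCR3, had -0.86 ± 0.37 (adjusted p = 0.250). DESeq2, which called 741 of the 12314 genes it tested, called 1 of them, Cxcl14, lower. The median of the 6 was -0.36, against 1.24 for the 9 tested ligands above and 0.00 for all tested genes. The 9 were chosen with earlier results of these data known, so the gap between these medians is no test of the ligands.

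Among chemokine receptors 8 of 24 were tested, and 3 rose and 1 fell. Over all tested genes 1.74% were called higher and 1.51% lower. The receptor that fell is not reported here. Cxcr1 rose from 17.4 ± 14.7 to 131 ± 18.0 CPM and Cxcr2, the receptor of CXCL2, from 6.09 ± 2.53 to 27.8 ± 4.75 CPM. Ccrl2, which binds chemerin and does not signal as a chemokine receptor, rose from 8.73 ± 1.78 to 20.0 ± 4.996 CPM. The edgeR adjusted p was 0.0206 for Cxcr1, 0.00808 for Cxcr2 and 0.0288 for Ccrl2 (n = 3 per group). Ccr1 was not called (0.16 ± 0.17, adjusted p = 0.652), and Ccr4 and Cxcr6, the receptors of CCL17 with CCL22 and of CXCL16, had too few counts to be tested.

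Other genes that are switched on with inflammatory chemokines were mostly not called, as was the case for most genes. Of all tested genes 1.74% were called higher and 1.51% lower, so few calls among 19 genes are near that share. Of 19 tested NF-kB cytokines and feedback genes 0 were called by edgeR, with a median log2 fold change of -0.06. An unadjusted p under 0.05 was found for 0 of the 19 and for 2078 of all 11011 tested genes. The 2 with the smallest p were Zfp36, a decay factor for cytokine messages (0.37 ± 0.17, adjusted p = 0.281), and Il1a, the cytokine IL-1alpha (0.54 ± 0.25, adjusted p = 0.288). DESeq2 called 0 of the 19, where it called 741 of the 12314 genes it tested. Of 19 tested immediate early genes, which respond within minutes to signals and to handling of cells, 1 rose. Atf3, a stress-induced transcription factor, rose from 14.4 ± 2.23 to 37.5 ± 12.9 CPM (log2 fold change 1.37 ± 0.23, n = 3 per group, edgeR adjusted p = 0.0203), and like Ccl3 it was highest in Pex5-deficient replicate 1. DESeq2 called Atf3 higher and Btg2 lower. Btg2, an antiproliferative gene, was not called by edgeR (log2 fold change -0.41 ± 0.12, adjusted p = 0.101). The sum of this list was 738 to 923 CPM in the controls against 717 to 832 CPM in the Pex5-deficient group. In the list of genes that shed, cut or bind chemokines 0 of 5 were called, with an unadjusted p under 0.05 for Mmp12, a macrophage elastase (2.57 ± 0.68, adjusted p = 0.0878), and of 0.0522 for Ndst1, a heparan sulfate enzyme (0.41 ± 0.18). DESeq2 called 1 of the 5, Mmp12, higher.

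Markers of other cells were set beside these values. For neutrophils, S100a9, Retnlg, Ly6g, Mmp9, Ngp, Camp, Mpo and Elane, 8 of the 13 markers, had no count in any library. The list's sum was nevertheless 84.5 to 98.6 CPM in the controls against 125 to 188 CPM in the Pex5-deficient group, without overlap. Mmp8, Csf3r, Cxcr2 and S100a8 made up most of it, of which Csf3r measured 40.5 ± 7.84 against 28.1 ± 9.44 CPM, the lower mean being in the Pex5-deficient group (log2 fold change -0.52 ± 0.24, adjusted p = 0.279). Among them S100a8 rose from 6.66 ± 1.65 to 27.9 ± 12.8 CPM beside Cxcr2, and its part in the ligands' differences was not tested. The 12 markers of monocytes and interstitial macrophages summed to 64.1 to 73.0 CPM in the controls against 45.4 to 61.1 CPM in the Pex5-deficient group. The sum was mostly Cd14, so it does not give the direction of the others, and C1qc and F13a1 had no count. In this list 4 were tested, with 1 called higher, 0 called lower and a median log2 fold change of 0.32. Over all tested genes 1.74% were called higher. Lymphocyte markers summed to 1.08 to 1.72 and 0.782 to 1.19 CPM, with 7 of 12 at 0, among them Cd3d and Cd79a. Markers of eosinophils, basophils and mast cells summed to at most 0.313 CPM in any library, with 7 of 10 at 0. Epithelial markers summed to 40.1 to 60.2 and 55.1 to 77.6 CPM, of which Cdh1, known also from alveolar macrophages, made up the most, while Sftpc was at 0.170 to 1.49 CPM.

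**Figure D4:**
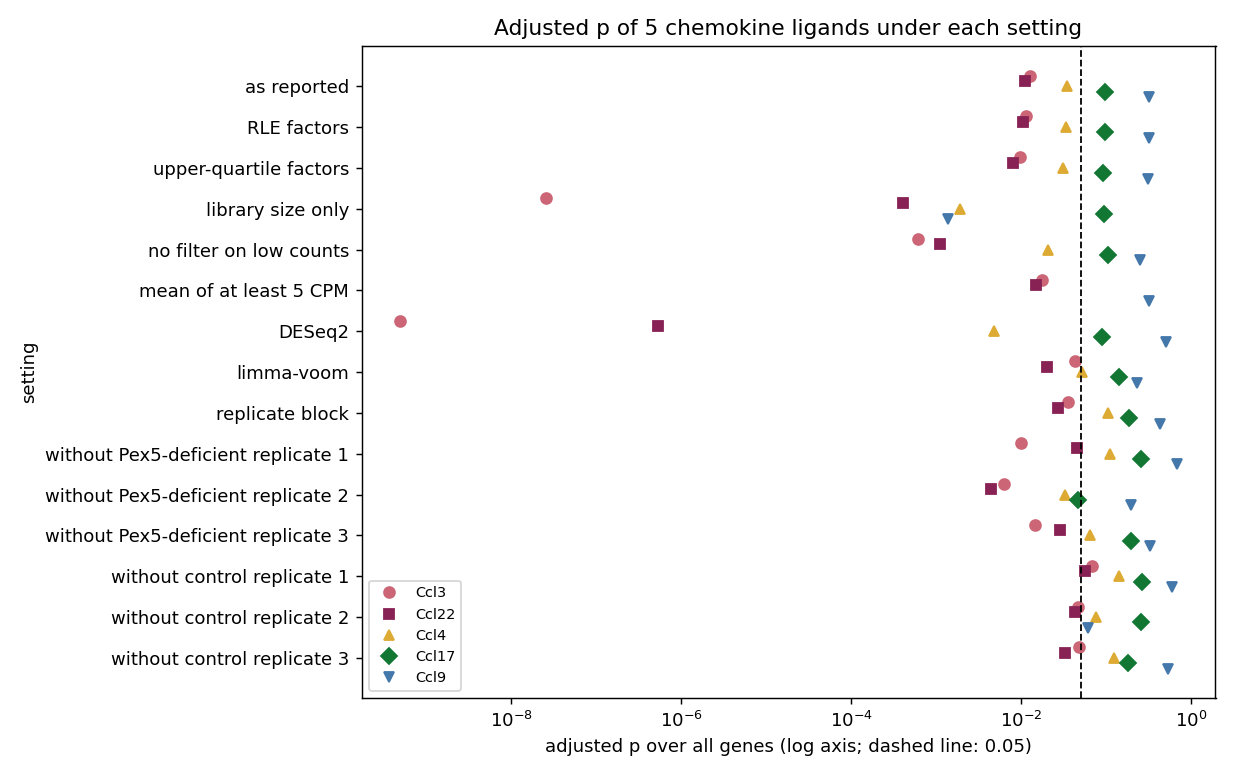
Adjusted p over all genes (log axis) of 5 chemokine ligands as reported and under 14 other settings, with the threshold of 0.05 as a dashed line. Ccl3 and Ccl22 pass in every row except the one without control replicate 1, Ccl4 passes in 6 of the 13 other settings in which it was tested, Ccl17 passes only without Pex5-deficient replicate 2, and Ccl9 only with scaling by library size alone.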

How the data were processed

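Total RNA came from 50000 sorted macrophages per sample and was sequenced as single-end reads of 100 bp with a stranded SMART-Seq kit, per the labels' protocols. The values used are gene counts as the authors deposited them, 1 table of 25664 genes in 6 libraries. STAR, featureCounts, R 4.3.2 and DESeq2 1.40.1, with the builds GRCm38.p5 and mm10, are named per the submitters' processing notes. The annotation and the use of strand in counting are not stated there. No molecular identifiers are named, so each count is a read, which PCR may have copied.

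Libraries were grouped by genotype label. Genes were filtered with filterByExpr (minimum count 10, minimum total 15), scaled by TMM and tested with edgeR 4.0.16 in R 4.3.3 (quasi-likelihood F test, two-sided, Benjamini-Hochberg over 11011 genes, threshold 0.05). Each standard error is the log2 fold change over the root of its F. CPM of untested genes use the same scaled library sizes. DESeq2 1.42.0, limma-voom 3.58.1, other scalings, other filters, a replicate block and leaving out each library were alternatives. Coordinates and exon lengths are from GENCODE M21 (GRCm38), and overlaps of 100-base words were counted in its transcripts.

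The ligands and gene lists were chosen with earlier results of these data known. All 10 ligands are named. Of each pathway list those called are named, at most 4 by smallest p, or else the 2 with the smallest p, and of each marker list the most abundant member and any called, at most 3. Receptors of the ligands, Adam10, genes beside the ligands and markers at 0 are named for their role or place, after their values were seen. A few genes are not reported here, although list counts and sums include them.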

Additional observations from a re-analysis of the deposited data

How the results depend on the processing

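Against 358 genes called in all, DESeq2 called 741, and leaving out 1 library gave 76 to 523. The ligands called higher numbered 3, with 0 to 4 when 1 library was left out, the 0 coming without control replicate 1 and the 4 (with Ccl17) without Pex5-deficient replicate 2. No ligand changed direction under any of the 14 alternatives in which it was tested, and none was called lower. With scaling by library size alone Ccl9 passed, at a log2 fold change of 1.48 (adjusted p = 0.00137). In that fit the prior degrees of freedom were 52.0 against 4.69, and the cause was not tested. With limma-voom Ccl4 missed, at 2.16 (0.0521). When 1 library was left out, the log2 fold change was 2.27 to 3.18 for Ccl3, 1.96 to 2.66 for Ccl4, 1.27 to 1.57 for Ccl22, 1.08 to 1.49 for Ccl17 and 0.76 to 2.64 for Ccl9. Fits without 1 library had 2 samples in a group. Ccl4, Ccl17, Cxcl2 and Pf4 gave no value with a filter at a mean of 5 CPM, nor Pf4 without control replicate 2. Libraries with the same replicate number deviated from their group means with correlations of -0.21, -0.06 and -0.41 across genes. No library correlated best with its own number. Deviations from a mean of 3 libraries are tied to each other, so these correlations cannot exclude pairing. The labels do not say whether the numbers pair the samples. With a replicate block 83 genes were called, and Ccl4 (log2 fold change 2.27, adjusted p = 0.105) was not. Ccl2, Ccl4, Ccl17, Cxcl2 and Pf4 rest on under 50 counts in each library, which limits their precision.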
